A study of Mus musculus with 6 samples.

Results

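Venous-side general capillary endothelium is described here in lungs of male C57BL/6 mice aged 21 months. These cells are general capillary cells, the cells of the alveolar capillary bed that carry Gpihbp1 and Kit, that also hold transcripts of Vegfc and none of the arterial-side gene Sema3g. They were chosen by their own counts. A barcode was a member if it had at least 500 genes, at least 1000 unique molecular identifiers (UMIs) and at most 15% mitochondrial UMIs, and if it held at least 1 UMI of Cdh5, at least 2 of Gpihbp1, at least 1 of Kit, at least 1 of Vegfc, at most 1 of Ednrb and none of Sema3g, Slc6a2, Ptprc and Epcam. Of 88616 barcodes that passed the filters in 6 libraries, 511 were members. The p16-DTR libraries held 80, 84 and 79 of them, and the control libraries 106, 72 and 90.

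All 6 mice carried p16-CreERT2, a recombinase that tamoxifen activates and that the p16 (Cdkn2a) locus drives. The 3 mice of the p16-DTR group also carried R26-LSL-DTR, a diphtheria toxin receptor that recombination switches on, and the 3 control mice did not. Both groups received tamoxifen for 5 days and, 2 weeks later, diphtheria toxin for 5 days. Lungs were taken after a further 2 weeks. The controls thus share the age, the Cre allele, the tamoxifen and the toxin with the p16-DTR mice. Lungs were dissociated with Liberase, and 20000 CD45- and 9000 CD45+ sorted cells were mixed for each library, so the share of endothelial cells in a library was set in part by the sort. The alleles act wherever the p16 locus is active at the time of tamoxifen, in any cell type.

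General capillary cells share the alveolar capillary bed with aerocytes, the large Ednrb-expressing capillary cells next to the air space. GPIHBP1 anchors lipoprotein lipase on capillary endothelium, KIT is the receptor for stem cell factor, and VEGFC is a ligand of the receptor VEGFR3 (Flt4), best known in lymphatic growth. NPR3 is the clearance receptor for natriuretic peptides, Kcnh1 encodes a voltage-gated potassium channel and Chrm2 a muscarinic acetylcholine receptor. Along a vascular bed, EFNB2 and DLL4 mark the arterial side and NR2F2, EPHB4 and VWF the venous side.

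Sema3g set most of the boundary of the population. With no condition on Sema3g and Vegfc, the gate held 17365 general capillary cells, of which 93.9% had a Sema3g UMI, and members were 2.94% of them. A Vegfc UMI was present in 6327 of these cells, and 5816 of those also held a Sema3g UMI. Just inside the limits, 107 members had exactly 1 Vegfc UMI, 42 had exactly 2 Gpihbp1 UMIs and 65 had exactly 1 Kit UMI. Just outside, 556 cells met every condition except for having no Vegfc UMI, 683 cells met every condition except for having 1 Sema3g UMI, 49 failed by having 1 Gpihbp1 UMI and 94 by having no Kit UMI. Another 612 cells failed by holding UMIs of Slc6a2, the venous-side gene of the gate, 44 of them with 1 UMI. A cell whose transcripts were missed can therefore fall on either side of these limits.

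Total depth per library lay between 254200305 and 344421685 UMIs. Member cells gave 947227 to 1530633 UMIs per library, with a median of 13733 UMIs and 4151 genes per cell over all libraries. Pairs of libraries had 59 to 94 barcodes in common, and no member barcode occurred in more than 1 library. Doublets were not removed with a caller. No label says that the mice came from separate litters or were processed on separate days, so p-values measure the spread between these libraries.

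Members were set beside 4 other groups of endothelial cells from the same libraries. The first were the 556 general capillary cells with neither a Sema3g nor a Vegfc UMI. The second were 10482 general capillary cells with a Sema3g UMI and no Vegfc UMI. The third were 522 venous cells, chosen by Slc6a2, and the fourth were 1791 aerocytes, chosen by Ednrb and Car4. The second group is called Sema3g-positive cells below. The 5816 general capillary cells with both UMIs were in none of the groups, and no level is given for them. Sema3g and Vegfc therefore cannot be told apart where members are set beside the Sema3g-positive cells. Cells were selected on their own counts, so the comparisons of levels with these 4 groups are descriptions with no test. Levels are given as CPM, the UMIs of a gene summed over the cells of 1 group in 1 library and scaled to the same total in every library.

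Of the 6 markers of the population, the gate did not use Npr3, Kcnh1 and Chrm2. Npr3 was found in 464 of 511 members, Kcnh1 in 354 and Chrm2 in 332. All 3 were found in 232 members (45.4%), and none of them in 17 (3.33%). After each cell was thinned to 5000 UMIs, which left 459 members and 357 of the cells with neither UMI, Kcnh1 was found in 53.6% ± 8.21 of members (SD over libraries, n = 6) and in 25.4% ± 9.60 of those other cells. Chrm2 was found in 50.4% ± 4.67 against 26.7% ± 2.77. Npr3 was found in 85.0% ± 8.90 against 66.5% ± 14.5. In the Sema3g-positive cells, thinned the same way, the shares were 84.5% ± 11.3 for Npr3, 22.3% ± 5.87 for Kcnh1 and 27.3% ± 3.23 for Chrm2, so Kcnh1 and Chrm2 were found more often in members and Npr3 about as often. Before thinning, members had 91.5% for Npr3, 69.6% for Kcnh1 and 64.7% for Chrm2 as means over libraries. In aerocytes, which should lack these genes and were deeper (a median of 20897 UMIs against 13733 in members), a UMI was found in 134 of 1791 cells for Npr3 (7.48%), 14 for Kcnh1 (0.782%) and 22 for Chrm2 (1.23%). A UMI of the alveolar type 2 gene Sftpc was found in 66.3% of members and 71.6% of aerocytes, a level that free RNA can set.

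The Kcnh1 level in members ran from 149 to 322 CPM over the 6 libraries, with a median of 207 CPM. In the Sema3g-positive cells it ran from 52.6 to 116 CPM, below every library of the members, and in venous cells from 115 to 239 CPM, which overlapped with the members. Chrm2 ran from 205 to 286 CPM in members, from 90.1 to 134 CPM in Sema3g-positive cells and from 59.7 to 103 CPM in venous cells. Chrm2 was therefore higher in members than in both neighbours in every library. Npr3 ran from 333 to 1179 CPM in members and from 338 to 1183 CPM in Sema3g-positive cells, with no separation. Aerocytes held at most 12.4 CPM of Npr3, 0.701 CPM of Kcnh1 and 5.55 CPM of Chrm2.

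**Figure D1:**
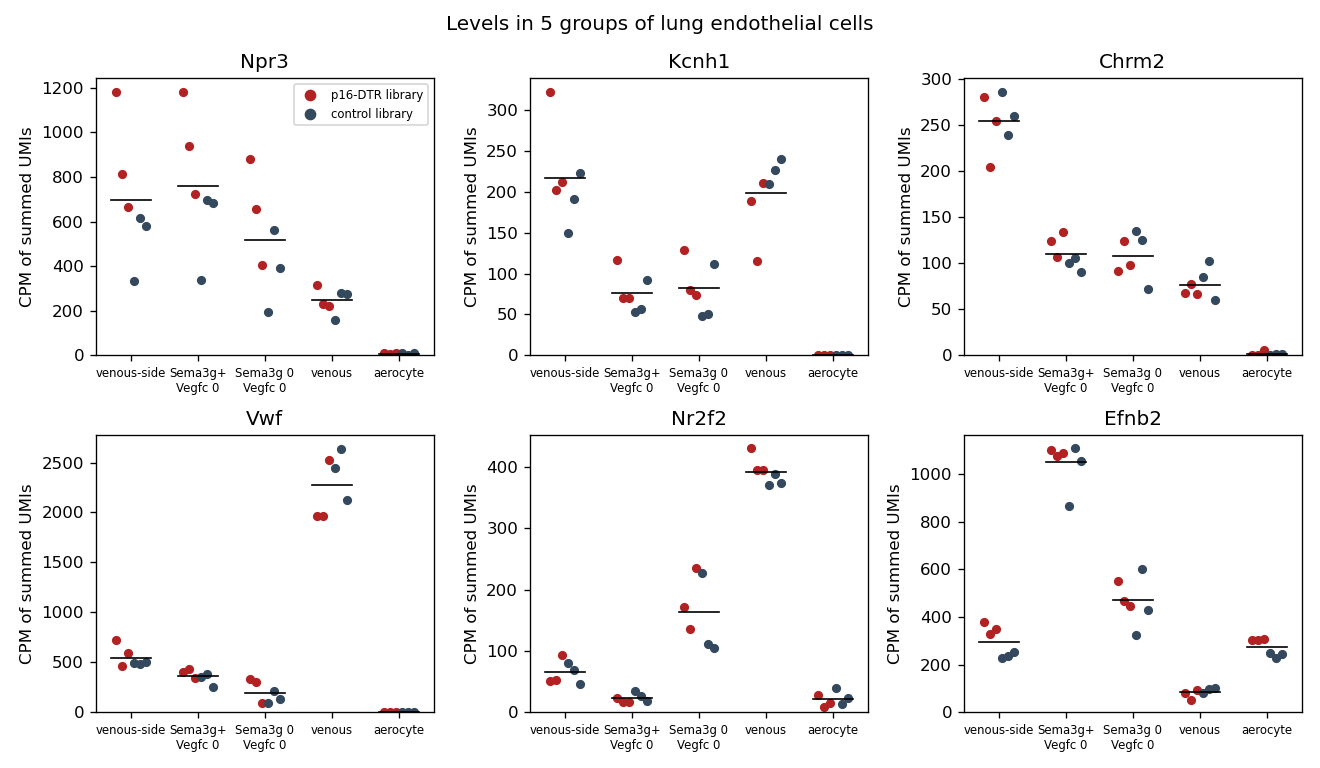
CPM, the scaled UMIs summed over each group of cells (y axis, linear from 0) for Npr3, Kcnh1, Chrm2, Vwf, Nr2f2 and Efnb2; each point is 1 library (p16-DTR red, control dark) and each line the mean of 6. Kcnh1 and Chrm2 are higher in venous-side cells than in general capillary cells without Vegfc, Vwf and Nr2f2 lie on average between those of Sema3g-positive and venous cells, and Efnb2 is below the Sema3g-positive cells.

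The venous and arterial genes that the gate did not use put members between the Sema3g-positive general capillary cells without a Vegfc UMI and the venous cells. Vwf, which encodes von Willebrand factor, averaged 545 CPM ± 101 (SD, n = 6) in members, 363 ± 64.4 in Sema3g-positive cells and 2276 ± 296 in venous cells. Nr2f2, which encodes the venous transcription factor COUP-TFII, averaged 65.6 CPM ± 18.9 in members, 22.8 ± 7.16 in Sema3g-positive cells, and ran from 371 to 430 CPM in venous cells. It was higher in the cells with neither UMI, at 164 CPM ± 56.8, than in members. Efnb2 averaged 297 CPM ± 64.9 in members, 1048 ± 91.9 in Sema3g-positive cells and 85.8 ± 18.7 in venous cells. Ephb4 did not follow this order, at 237 CPM ± 36.6 in members, 226 ± 9.77 in Sema3g-positive cells, and from 206 to 259 CPM in venous cells. The venule genes Selp and Ackr1 were found in 10 and 1 of 511 members, and in 174 and 41 of 522 venous cells.

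Beyond these genes, those with the highest ratios of members over the cells with neither UMI included Rarb, the retinoic acid receptor beta, at 67.7 CPM against 10.0 (6.76-fold), the adhesion gene Amigo2 at 53.4 CPM against 10.8 (4.93-fold), the laminin chain Lama1 at 64.2 CPM against 18.4 (3.49-fold) and the muscarinic receptor Chrm3 at 205 CPM against 67.1 (3.06-fold). Only genes higher in all 6 libraries were ranked, so that agreement follows from the choice. Against the Sema3g-positive cells the ratios of Rarb, Lama1 and Chrm3 were 16.6, 3.42 and 4.36. Venous cells held more of each of these than members, with ratios of members over venous cells of 0.190 for Rarb, 0.225 for Amigo2, 0.555 for Lama1 and 0.622 for Chrm3. Not all of the highest ratios went this way. The ratio over venous cells was 9.11 for Tspan8, 4.87 for Edil3, 1.30 for Epb41l4a and 1.10 for Ptgs1. Tspan8 stood at 343 CPM in members and 320 CPM in aerocytes, and Edil3 at 157 and 754 CPM. Cacna1a, a calcium channel subunit, stood at 104 CPM in members and 36.5 CPM in the cells with neither UMI, and Ptgs1, which encodes cyclooxygenase 1, at 193 and 88.9 CPM. Cacna1a was higher than in members in both venous cells (175 CPM) and aerocytes (157 CPM). Genes lower in members than in Sema3g-positive cells included the arterial Notch ligand Dll4 (a ratio of 0.334), the transcription factor Mecom (0.243) and the lipase Mgll (0.0993). Venous cells held 2.68 CPM of Dll4 against 37.1 CPM in members. They held more than members of Mecom (208 against 18.0 CPM) and Mgll (44.1 against 16.2 CPM). The genes with the lowest ratios over the cells with neither UMI were lymphatic ones, among them Mmrn1 at 1.70 against 433 CPM and Reln at 0 against 309 CPM. The lymphatic factor Prox1 had a UMI in 48 of those 556 cells (8.63%) and in 4 of 511 members (0.783%), so that comparison group held cells with lymphatic transcripts. In members the lymphatic list rested on Lyve1, at 851 to 1489 CPM, and Lyve1 stood at 480 to 1080 CPM in the Sema3g-positive cells.

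Members with the most Vegfc UMIs held more of the venous genes Vwf, Nr2f2 and Ephb4 than those with 1. The gate used Vegfc, so these bins are a description with no test. Between the 107 members with 1 Vegfc UMI and the 84 with 20 or more, mean Vwf went from 302 CPM ± 114 (SD, n = 6 libraries) to 755 ± 334, Nr2f2 from 29.8 ± 22.8 to 95.2 ± 35.6 and Kcnh1 from 140 ± 81.8 to 252 ± 55.7. Ephb4 went from 182 CPM ± 72.5 to 264 ± 47.0. Kit stood at 502 CPM ± 65.0 and 484 ± 106, and Npr3 at 684 ± 316 and 716 ± 219. The arterial genes Gja4 and Cxcl12 showed no matching fall, with Gja4 at 128 ± 64.3 and 120 ± 21.2 and Cxcl12 at 304 ± 126 and 348 ± 98.1. Efnb2 and Dll4 were not binned. Cells with 10 or more Vegfc UMIs were deeper, at a median of 15338 UMIs against 12631 in the other 338 members, and the part of depth in these differences was not tested. The SDs of neighbouring bins overlap, and Nr2f2 was lower in the bin of 10 to 19 UMIs (66.0 CPM) than in that of 5 to 9 (83.8 CPM).

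**Figure D2:**
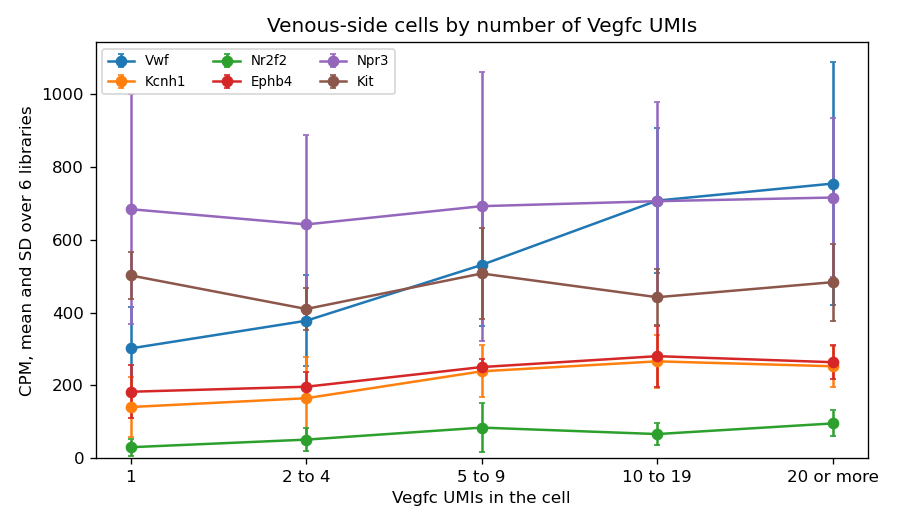
Mean CPM (y axis, linear from 0) of 6 genes in members grouped by the number of Vegfc UMIs in the cell (x axis); error bars are the SD over 6 libraries. Vwf goes from 302 to 755 CPM across the bins, while Kit moves between 410 and 507 CPM with no such order.

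The share of members among general capillary cells without a Sema3g UMI asks whether the population was smaller or larger after the p16-driven ablation. It was 49.4%, 46.7% and 46.2% in the p16-DTR libraries and 51.2%, 42.4% and 50.8% in the controls, which overlap. The means were 47.4% ± 1.72 and 48.1% ± 5.01 (SD, n = 3 each), a difference of -0.720 percentage points with p = 0.8 in an exact two-sided permutation test, where 3 against 3 libraries cannot go below 0.1. The rest of that denominator, the cells with neither UMI, differed in depth between groups without overlap. Their median was 6834.5, 7431.5 and 7349.5 UMIs in the p16-DTR libraries and 11456, 10136.5 and 9872 in the controls. The part of this depth in the share was not tested. Some of the cells with neither UMI also held lymphatic transcripts, as given above, and their part in the share was not tested. Over all general capillary cells, whatever their Sema3g, the share was 2.72%, 2.83% and 2.35% against 4.26%, 2.51% and 3.28%. Over all barcodes that passed the filters, the mean share was 0.552% against 0.598% (p = 0.2, exact permutation test). Fewer cells and less RNA per cell cannot be told apart where a share rests on a few UMIs, and the difference moved in size and sign with the gate. It was -5.12 points with at least 2 Vegfc UMIs (p = 0.2, exact permutation test), 0.585 points with at least 1 Gpihbp1 UMI and 1.82 points with a stricter cell filter. With the gate on counts thinned to 5000 UMIs the share was 38.4% ± 0.440 against 41.6% ± 2.26 (SD, n = 3 each), groups that do not overlap, a difference of -3.24 points with p = 0.1, the smallest p this exact test can give. The thinned gate does not hold the same population. It took in 203, 211 and 219 cells in the p16-DTR libraries and 223, 195 and 194 in the controls, more than the members. A cell whose UMIs of Sema3g or another excluded gene were lost in thinning can enter it.

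The targeted locus was read first. Cdkn2a, which encodes p16 and p19ARF, gave 5, 4 and 3 UMIs in the members of the p16-DTR libraries and 0 in each control library. Counting 3 UMIs as the limit over the control group, the pooled level in the p16-DTR members was 4.53-fold that limit. The counting error of the 12 UMIs in p16-DTR members and the spread between mice are not in this value. The same direction was seen in the larger Sema3g-positive population, with 109, 131 and 103 UMIs against 15, 12 and 11, where the log2 fold change was 2.96 with an adjusted p of 0.0212 (edgeR). In aerocytes Cdkn2a stood at 44.0, 36.4 and 33.3 CPM against 23.4, 33.7 and 48.0 CPM, groups that overlap, with a log2 fold change of 0.14 and an adjusted p of 0.842 (edgeR). The gene itself is not deleted in this design, so its level does not check the labels. The 3' end of Cdkn2a is shared by p16 and p19ARF transcripts, so the counts do not tell them apart. tdTomato was at 0 in every member, which allows up to 0.432 CPM over all 6 libraries pooled and more over the p16-DTR libraries alone. In the Sema3g-positive cells tdTomato gave 12, 7 and 11 UMIs in the p16-DTR libraries (0.406, 0.244 and 0.316 CPM) and 0 in each control library. These levels lie under that limit, so the 0 in members does not set members apart from those cells. Cdkn1a, the p53 target that encodes p21, stood at 634, 582 and 976 CPM in p16-DTR members and at 372, 455 and 609 CPM in controls, groups that overlap, with a log2 fold change of 0.62 ± 0.21 (SE) and an adjusted p of 0.252 (edgeR). Hbegf, the mouse form of the toxin's receptor, stood at 26.7, 20.6 and 21.1 against 51.6, 27.4 and 32.3 CPM, groups that do not overlap, with an adjusted p of 0.317 (edgeR). In Sema3g-positive cells Hbegf was 31.2, 27.1 and 26.9 against 56.8, 40.2 and 46.6 CPM. In venous cells it was 9.35, 14.3 and 18.4 against 34.2, 45.8 and 44.0 CPM. Its groups overlapped in the cells with neither UMI and in aerocytes.

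Counts were summed per library and p16-DTR was tested against control with the edgeR quasi-likelihood test and Benjamini-Hochberg adjustment at 0.05. Of 9261 genes tested, 9 were higher (0.0972%) and 57 were lower (0.615%) in p16-DTR members. The groups did not overlap for 1510 genes (16.3%). A large part of the lower calls came with fibroblast transcripts in a few barcodes, given next with the fit that leaves those barcodes out.

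Of the 511 members, 20 held at least 2 UMIs of Col1a2, Pdgfra or Pdgfrb, markers of mesenchymal cells that endothelium should lack. They numbered 2, 2 and 1 in the p16-DTR libraries and 7, 4 and 4 in the controls, and held 3.35%, 7.15% and 0.994% against 11.6%, 10.8% and 8.21% of the members' UMIs. The summed level of the 9-gene fibroblast list was 94.4, 421 and 106 CPM in p16-DTR members and 674, 1027 and 703 CPM in controls, with no overlap. Without the 20 barcodes it was 92.7, 57.4 and 32.9 against 135, 79.3 and 59.6 CPM. Col1a2 and Pdgfra are on this list and also chose the 20 barcodes, so part of that drop follows from the filter. The median depth of the 20 barcodes ran from 10379 to 41597 UMIs per library, against 13110 to 14456 in the other members, and whether they hold more than 1 cell was not tested. All 9 fibroblast genes were detected in members, from 5 UMIs for Lum to 1543 for Inmt.

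The genes with the largest falls included genes of fibroblasts, and most of their control UMIs were in the 20 barcodes. C1qtnf7, which encodes a secreted protein of the C1q and TNF family, was 4.77, 8.60 and 1.92 CPM in p16-DTR members and 68.6, 57.0 and 76.3 CPM in controls (log2 fold change -3.66 ± 0.33, adjusted p 0.000795, edgeR), with 92.8% of its control UMIs in these barcodes. Fibronectin (Fn1) was 9.53, 9.46 and 4.79 against 66.6, 71.8 and 58.0 CPM, with 89.2% there. The extracellular matrix gene Svep1, the fibroblast gene Scube2, the alveolar fibroblast transcription factor Tcf21 and the collagen Col13a1 also fell, with 98.3%, 93.8%, 85.7% and 92.9% of their control UMIs in these barcodes. For 37 of the 57 lower genes over 50% of control UMIs came from them. Without the 20 barcodes, 41 of the 57 were no longer called, and 29 of these had too few counts to be tested. Among the 12 that were tested, Nhsl1 and Gna14 kept the size of their falls, with log2 fold changes of -0.97 and -0.59 over all members and -1.04 and -0.64 without those barcodes, where their adjusted p were 0.0571 and 0.0533 (edgeR). Those barcodes held 5.25% and 4.93% of the control UMIs of these 2 genes, which were named after their values were seen. Vegfd, the other VEGFR3 ligand, was 6.71 to 15.3 CPM in p16-DTR members and 30.6 to 46.4 CPM in controls (adjusted p 0.0310, edgeR) and stood at a log2 fold change of -0.47 with an adjusted p of 0.772 without them. Prkg1, the cyclic GMP-dependent kinase, fell by 1.37 on the log2 scale over all members and turned to 0.51 without them.

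**Figure D3:**
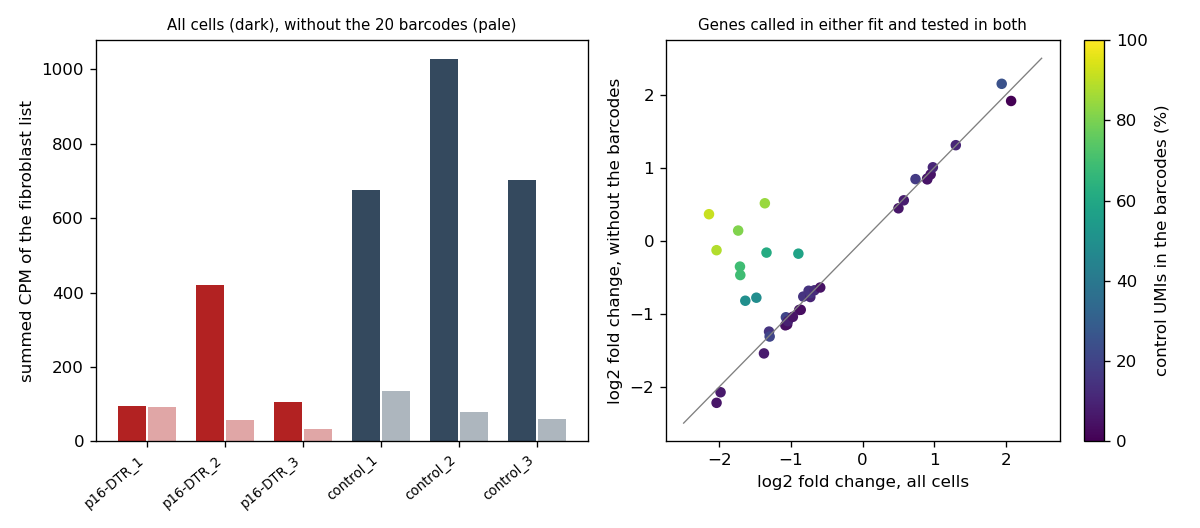
Left, summed CPM of the 9 fibroblast genes in each library over all members (dark) and without the 20 barcodes with mesenchymal UMIs (pale); right, log2 fold change of p16-DTR against control over all members (x axis) and without those barcodes (y axis) for genes called in either fit and tested in both, coloured by the percent of control UMIs in those barcodes. Genes with a high percent leave the diagonal, and the rest lie on it.

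Without the 20 barcodes, 21 genes of 8956 were called, 5 higher (0.0558%) and 16 lower (0.179%), and 20 of the 21 were also called over all members. The levels and tests of the named genes below are over all members unless stated. Egr1, an immediate early transcription factor, was 342, 474 and 301 CPM in p16-DTR members and 1032, 715 and 1032 CPM in controls, a fall of 1.30 on the log2 scale (SE 0.18, adjusted p 0.00837, edgeR). Without the 20 barcodes Egr1 was 325, 370 and 292 against 899, 636 and 928 CPM, with a log2 fold change of -1.31 and an adjusted p of 0.00222 (edgeR). Ier2, another immediate early gene, was 411, 456 and 443 against 765, 573 and 857 CPM (log2 fold change -0.73, adjusted p 0.0386, edgeR). Zfp36, which encodes an mRNA-decay factor, was 343, 383 and 322 against 621, 461 and 670 CPM. Btg2 and Plk2, which are p53 targets, fell by 0.83 and 0.89. Nfkbiz, an NF-kB co-regulator, was 143, 211 and 136 against 359, 261 and 421 CPM. In each of these genes every p16-DTR library lay below every control library, which adds no support since they were called on these same values.

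Apart from Cirbp, the next genes lie outside the naming rule and were chosen after their values were seen. Socs1, a feedback inhibitor of cytokine receptor signalling, was 11.4, 10.3 and 7.66 CPM against 37.2, 42.2 and 39.8 CPM, a log2 fold change of -1.98 ± 0.25 (adjusted p 0.00624, edgeR). Dusp5, a nuclear phosphatase of ERK, was 5.72, 5.16 and 5.75 against 21.6, 20.1 and 28.2 CPM. Trim69 was 23.8, 33.5 and 29.7 against 79.1, 83.4 and 68.0 CPM. Cirbp, an RNA-binding protein induced by cold, was 33.4, 42.1 and 37.4 against 79.1, 85.5 and 72.1 CPM. The other lower calls in both fits were Nup210l, Pde12, Zfp503, Ahr (the aryl hydrocarbon receptor), Arf4 and Ripk1.

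The direction of each of these 16 genes held in every alternative fit, but most calls were lost in some fits that left out 1 library. Such fits hold fewer libraries, so a lost call does not show that it rested on the library left out. Leaving out 1 library at a time, Btg2, Socs1, Trim69 and Nup210l were called in 6 of 6 fits. Egr1 was called in 5 of 6 and had an adjusted p of 0.0597 without p16-DTR library 1 (edgeR). Plk2 was called in 4 of 6, with 0.0597 without p16-DTR library 1 and 0.0562 without p16-DTR library 3. Ier2, Zfp36 and Nfkbiz were called in 2 of 6, and were lost without p16-DTR library 1 or 3 or control library 1 or 3, with adjusted p from 0.102 to 0.177 (edgeR). Cirbp, Dusp5 and Pde12 were also called in 2 of 6, Ahr and Arf4 in 3, and Zfp503 and Ripk1 in 1. With cells gated on counts thinned to 5000 UMIs, no gene was called by edgeR, with 1502 genes of 11322 under an unadjusted p of 0.05, while DESeq2 called 193. That gate holds more cells than the members, among them cells whose UMIs of excluded genes were lost in thinning. It is therefore not the same population at equal depth.

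Higher genes were fewer. Ccnd3, which encodes cyclin D3, was 415, 420 and 369 CPM in p16-DTR members and 146, 224 and 250 CPM in controls (log2 fold change 0.98 ± 0.17, adjusted p 0.0316, edgeR). Sema7a, a membrane semaphorin, was 121, 156 and 156 against 72.5, 86.6 and 68.8 CPM (0.95 ± 0.15, adjusted p 0.0168, edgeR). Klf10, a TGF-beta-inducible transcription factor, was 62.0, 79.9 and 99.6 against 41.2, 21.1 and 34.0 CPM. Marcks, an actin-associated substrate of protein kinase C, was 288, 300 and 311 against 166, 210 and 171 CPM. These 4 were called in both fits. Leaving out 1 library at a time, Ccnd3 and Sema7a were called in 3 of 6 fits, Marcks in 2 and Klf10 in 1, always higher. Tmc7, Gnao1, Hspa12b, Efnb2 and Aff3 were called over all members and missed the threshold without the 20 barcodes, with adjusted p from 0.0613 to 0.111 and log2 fold changes of 1.91, 0.85, 0.84, 0.55 and 0.44. Fkbp5, a co-chaperone induced by glucocorticoids, missed the threshold over all members (adjusted p 0.0735, edgeR) and passed it without the barcodes (log2 fold change 2.15, adjusted p 0.0398, edgeR). Fkbp5 was called in 4 of 13 alternatives and in 1 of 6 fits that left out 1 library (without p16-DTR library 2, adjusted p 0.0119), with adjusted p up to 0.232 over all of these, and was named after its values were seen. Over all members Fkbp5 was 97.2, 58.5 and 180 CPM against 14.4, 44.3 and 33.2 CPM. In Sema3g-positive cells it was 49.4, 35.6 and 106 against 8.59, 21.2 and 14.5 CPM. In venous cells it was 277, 190 and 490 against 76.8, 157 and 154 CPM. It was also higher without overlap in the cells with neither UMI, and its groups overlapped in aerocytes.

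**Figure D4:**
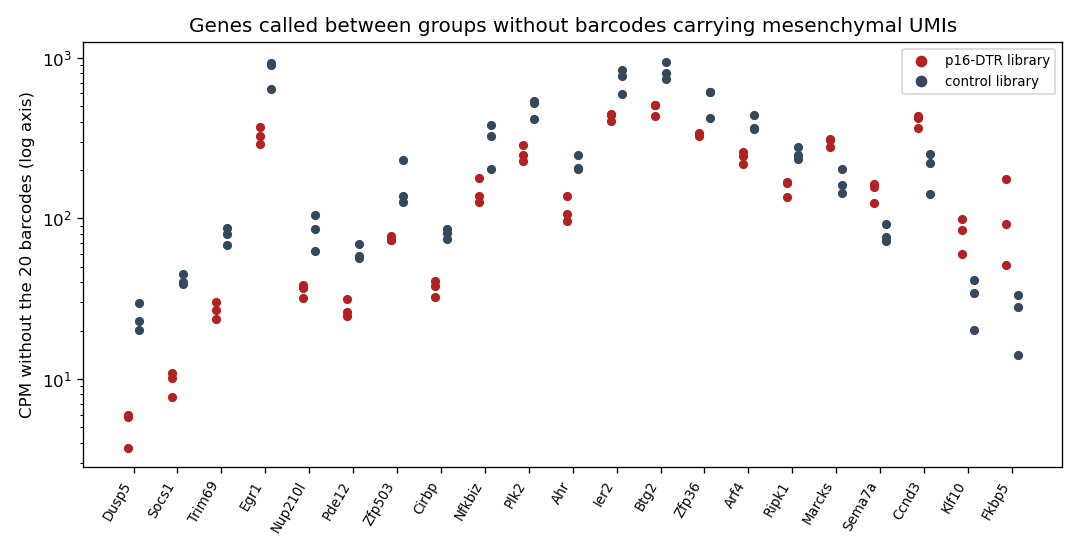
CPM (y axis, log scale) in each library for the 21 genes called without the 20 barcodes with mesenchymal UMIs; each point is 1 library (p16-DTR red, control dark). In all 21 genes the points of the 2 groups do not overlap. The genes were called on these same values, so this adds no support.

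Promoter sequence is shown for lower genes that hold a match to a CRE (TGACGTCA, the cyclic AMP response element, which reads the same on both strands) or to the CArG box (the motif of serum response factor). Both motifs were searched in the 250 bases before the start of 11 of the 16 lower genes. Of these 11, 2 held a CRE (Btg2, Plk2) and 2 a CArG box (Zfp36, Dusp5), and 7 held neither. Egr1, Ier2, Nfkbiz, Ahr and Nup210l were not searched. Matches are in capitals, in RefSeq sequence of build GRCm38, 5′ to 3′ on the gene's strand. Zfp36 lies at chr7:28379229-28379478 (minus strand), Dusp5 at chr19:53528895-53529144 (plus strand), Btg2 at chr1:134079156-134079405 (minus strand) and Plk2 at chr13:110394794-110395043 (plus strand).
Zfp36: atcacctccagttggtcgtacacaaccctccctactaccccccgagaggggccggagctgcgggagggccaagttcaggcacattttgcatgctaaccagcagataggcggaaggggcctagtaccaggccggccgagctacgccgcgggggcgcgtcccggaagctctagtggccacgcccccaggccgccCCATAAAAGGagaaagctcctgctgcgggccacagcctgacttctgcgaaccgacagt
Dusp5: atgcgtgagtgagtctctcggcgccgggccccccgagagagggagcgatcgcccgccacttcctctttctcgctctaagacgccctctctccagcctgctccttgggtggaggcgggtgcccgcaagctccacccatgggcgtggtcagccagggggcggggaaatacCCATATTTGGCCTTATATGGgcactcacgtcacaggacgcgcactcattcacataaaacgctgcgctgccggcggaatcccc
Btg2: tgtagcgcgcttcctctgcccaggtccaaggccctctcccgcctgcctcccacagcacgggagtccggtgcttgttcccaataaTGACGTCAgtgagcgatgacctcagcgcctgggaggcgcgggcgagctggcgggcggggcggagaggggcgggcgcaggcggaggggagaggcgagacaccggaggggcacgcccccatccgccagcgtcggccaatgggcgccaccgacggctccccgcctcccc
Plk2: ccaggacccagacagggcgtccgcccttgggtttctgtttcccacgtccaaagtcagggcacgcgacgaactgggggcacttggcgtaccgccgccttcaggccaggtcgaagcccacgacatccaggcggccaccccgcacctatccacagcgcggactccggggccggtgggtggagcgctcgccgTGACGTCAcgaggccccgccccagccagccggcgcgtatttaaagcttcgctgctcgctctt
The CRE occurs in 508 of 32851 promoters of this length (1.55%) and the CArG box in 482 (1.47%). A match describes the letters and not a bound site.

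Counts by list are over all members, leave out the genes that chose the cells, and stand beside 0.615% of all genes tested that were lower and 0.0972% that were higher. The heat shock and dissociation stress list had 4 of 26 tested genes lower and none higher, at a median log2 fold change of -0.20 against 0.00 for all genes tested. The 4 were Egr1, Ier2, Zfp36 and Cirbp, and Fos, Jun, Junb and Atf3 did not pass, with adjusted p from 0.136 to 0.727. The median share of mitochondrial UMIs per member was 1.39%, 1.25% and 1.41% in the p16-DTR libraries and 1.16%, 1.15% and 1.20% in the control libraries, groups that do not overlap, and its part in these falls was not tested. The p53 and cell cycle list had 2 of 16 lower, Btg2 and Plk2, with a median of -0.10. Of 16 glucocorticoid-induced genes none passed over all members, and the median was 0.42. Of 15 NF-kB genes 1 was lower (Nfkbiz), with a median of -0.34, and of 13 arterial genes 1 was higher (Efnb2), with a median of 0.21. Of 18 collagen and basement membrane genes 2 were lower (Fn1, Col13a1; median -0.19), and of 8 fibroblast genes 2 were lower (Tcf21, Mfap4; median -2.05). Without the 20 barcodes Fn1, Col13a1 and Tcf21 had too few counts to be tested, and Mfap4 stood at a log2 fold change of -0.13 with an adjusted p of 0.972 (edgeR). In that fit 15 collagen and 2 fibroblast genes were tested, with medians of 0.22 and -0.55. None of 14 venous genes, 12 general capillary genes, 19 KIT genes, 15 Notch genes, 25 interferon genes, 15 MHC class I genes or 7 MHC class II genes passed, and their medians lay between -0.14 and 0.15. Of 11 VEGF and apelin genes 2 were lower (Vegfd, Svep1), of 12 natriuretic peptide, nitric oxide and cyclic GMP genes 1 was lower (Prkg1) and of 15 semaphorin, plexin and neuropilin genes 1 was higher (Sema7a). Without the 20 barcodes Vegfd, Prkg1 and Efnb2 missed the threshold and Svep1 was not tested. The log2 fold change of Efnb2 was 0.55 there against 0.57 over all members, with an adjusted p of 0.0670 (edgeR), and 8.08% of its control UMIs lay in those barcodes. The calls of Nfkbiz, Btg2, Plk2, Sema7a and the 4 stress genes were kept without those barcodes, and 1 glucocorticoid gene (Fkbp5) was higher. Over all members Hey1, a Notch target, was 91.5, 90.3 and 123 against 44.4, 60.2 and 61.4 CPM, with an adjusted p of 0.0555 (edgeR). Npr3 was 1179, 812 and 665 against 333, 614 and 581 CPM (log2 fold change 0.81 ± 0.24, adjusted p 0.203, edgeR), so its groups did not overlap and the test did not pass. In Sema3g-positive cells Npr3 was 1183, 939 and 722 against 338, 698 and 682 CPM, also without overlap. Its groups overlapped in the cells with neither UMI, venous cells and aerocytes. Kcnh1 and Chrm2 overlapped between groups, with adjusted p of 0.474 and 0.892 (edgeR). Gpihbp1, Kit and Vegfc were used to choose the cells, and stood at 901, 490 and 634 CPM on average in p16-DTR members and at 787, 441 and 827 CPM in controls.

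Whether the p16-DTR effect differed between members and the other cells was tested as an interaction in edgeR, with the mouse as a block. Against the cells with neither a Sema3g nor a Vegfc UMI no gene of 9831 was called (0%), with 406 genes under an unadjusted p of 0.05. Those cells were shallower in the p16-DTR libraries, as given with the share, and the part of depth was not tested. Against aerocytes none of 11299 was called (0%), with 660 under 0.05. Against the Sema3g-positive cells 8 of 14164 were called (0.0565%) and against venous cells 81 of 10472 (0.773%). With the barcodes holding mesenchymal UMIs left out of both groups of cells, 0, 0, 0 and 4 genes were called against the cells with neither UMI, aerocytes, Sema3g-positive cells and venous cells. Over all Sema3g-positive cells, where 8 genes were called in the comparison of p16-DTR with control, Cirbp passed (log2 fold change -0.76, adjusted p 0.0317, edgeR). Egr1, Nfkbiz and Plk2 did not, with log2 fold changes of -1.32, -0.70 and -0.54 and adjusted p of 0.0670, 0.0677 and 0.05004 (edgeR). Without the barcodes holding mesenchymal UMIs 172 genes were called there. In that fit the log2 fold changes of Egr1, Cirbp, Nfkbiz and Plk2 were -1.36, -0.78, -0.71 and -0.57, with adjusted p of 0.0411, 0.0114, 0.0460 and 0.0249 (edgeR). Those of Btg2, Ier2 and Zfp36 were -0.59, -0.64 and -0.59, with adjusted p of 0.0510, 0.0562 and 0.0898. The interaction of Nfkbiz with venous cells was called over all barcodes (adjusted p 0.0374) and not without those barcodes (0.707). The interaction of Sema7a with venous cells was also called over all barcodes (adjusted p 0.0139) and not without those barcodes (0.0884). Its log2 fold change in venous cells was -0.71 over all barcodes and -0.37 without them, against 0.95 over all members. Over all barcodes Sema7a was 144, 136 and 212 against 97.4, 106 and 107 CPM in Sema3g-positive cells. It was 169, 133 and 243 against 75.8, 98.0 and 118 CPM in the cells with neither UMI. In aerocytes it was 433, 429 and 519 against 343, 417 and 379 CPM. In each of these groups the p16-DTR libraries lay above the controls, so its rise is not shown to be particular to members. The falls of the 7 lower genes named here are thus not shown to be particular to members.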

How the data were processed

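Single-cell RNA-seq of 6 libraries was analysed, from 3 p16-DTR and 3 control mice, captured in droplets with a 3' kit, per the labels. The authors deposited matrices of UMI counts per gene and barcode, made with Cell Ranger 8.0.1 on mm10, per the submitters' processing notes. Annotation release and cell-calling settings are not given in the sources used here. Member counts were summed per library and tested with edgeR 4.0.16 (R 4.3.3; filterByExpr, TMM, quasi-likelihood test, Benjamini-Hochberg adjustment at 0.05), and shares with an exact permutation test over libraries. Interaction fits used summed counts of 2 groups of cells with mouse as a block. The test was run on simulated data with known changes. Where the counts were drawn with gene-wise dispersions, more unchanged genes were called than the nominal rate allows. With dispersions from a trend over genes this was so in some of the runs. Members and gene lists were chosen with earlier results of these data known.

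Named genes were the 6 markers, Cdkn2a, Cdkn1a, Hbegf and tdTomato, up to 15 higher and 15 lower calls by size with groups that did not overlap and at least 10 CPM in the higher group, called list genes, and up to 5 called genes per interaction. For levels, they were taken from up to 15 of the highest and 10 of the lowest ratios over each group of general capillary cells. These needed at least 50 CPM in the higher and the same direction in all 6 libraries. Gene models named Gm or Rik were left undescribed there (Gm30382, at a ratio of 3.14 over the cells with neither UMI, was the one among the highest). Genes named outside this rule (the other genes called without the 20 barcodes, Hey1, Fos, Jun, Junb, Atf3 and Flt4 among them) were chosen after their values were seen. Genes of the gate stayed in the fits across all genes, were left out of the list counts, and have no p printed. The fits that leave out barcodes with at least 2 UMIs of Col1a2, Pdgfra or Pdgfrb, the gate with any Sema3g, and the Sema3g-positive comparison group were added after the data were seen. Depth per library is given with the results. Values after ± are SDs over libraries or, for log2 fold changes, SEs from edgeR, and the limits set for a count of 0 cover counting error only.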

Additional observations from a re-analysis of the deposited data

Results flagged for a closer look

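The p16-DTR effect differed between members and another group of cells, by an edgeR interaction test, in these genes. Against Sema3g-positive general capillary cells the interaction was -2.80 for Nav2, -2.63 for C1qtnf7, -2.48 for Fn1, -2.44 for Adamts17 and -1.73 for Nebl (log2 scale, effect in members minus effect in the other cells). Each was called over all barcodes, with adjusted p from 0.00128 to 0.0426, and none was called without barcodes with mesenchymal UMIs, where the adjusted p ran from 0.954 to 1. In that fit the interaction was -1.28 for Nav2, -1.95 for C1qtnf7, -0.75 for Fn1, -0.38 for Adamts17 and 0.74 for Nebl.

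Against venous cells it was -7.05 for Sytl2, -6.48 for B3gnt9, -5.48 for 1810010H24Rik, -4.92 for Xkr4 and -4.67 for C1qtnf7. Sytl2 and B3gnt9 were at 0 in all 3 p16-DTR libraries of members, so their fitted values are no bound. Without barcodes with mesenchymal UMIs these 5 had too few counts to be tested.

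Against venous cells without such barcodes the interaction was called for Flt4 (-2.36), Cebpd (0.989), Adamts9 (0.965) and Ccdc85a (-0.990). Flt4, the receptor for VEGFC, was 37.5, 45.4 and 43.5 CPM in p16-DTR members and 50.3, 73.4 and 56.9 CPM in controls, and 87.6, 111 and 97.8 against 26.8, 27.3 and 27.0 CPM in venous cells. Flt4 is also on the lymphatic list, and the venous cells held lymphatic transcripts unevenly between libraries. Over all barcodes, Mmrn1 averaged 87.0 CPM ± 92.1 (SD over libraries) in venous cells and Reln 41.1 ± 45.7. The part of lymphatic transcripts in the Flt4 difference was not tested.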

How the results depend on the processing

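The count of genes called in members was 66. It was 102 with DESeq2, 496 with no filter on low counts, 109 with the replicate block, 32 with at least 2 Vegfc UMIs, 33 with at least 1 Gpihbp1 UMI, 28 without barcodes holding UMIs of 7 other-lineage genes, 0 with the gate on thinned counts (edgeR; 1502 under an unadjusted p of 0.05, and 193 called by DESeq2), 43 with any Sema3g and 21 without barcodes with mesenchymal UMIs. Leaving out 1 library gave 18 to 175 calls: 18, 175 and 23 without p16-DTR replicates 1, 2 and 3, and 24, 48 and 49 without control replicates 1, 2 and 3. The other alternatives (RLE, library size only, the stricter cell filter, equal cells per library) kept the count within 1.5 times. Same-numbered libraries deviated together by correlations of 0.00087, 0.0158 and 0.0710, none over 0.1, so the numbers were not taken as pairing the libraries. Cdkn1a and Fkbp5, not called over all members, were called with the replicate block (adjusted p 0.0414 and 0.0410, edgeR) and with no filter on low counts. Npr3 and Fos, also not called over all members, were called only with no filter (adjusted p 1.14e-09 and 0.000103, edgeR). Cdkn2a, not tested over all members, was called with no filter and with any Sema3g (adjusted p 0.0389 and 0.0363, edgeR).

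The interaction counts were 0 against the cells with neither UMI (59 with no filter; 0 to 2 without 1 library), 8 against Sema3g-positive cells (94 with no filter, 0 without mesenchymal barcodes; 8 to 73 without 1 library), 81 against venous cells (479 with no filter, 4 without mesenchymal barcodes; 25 to 138 without 1 library) and 0 against aerocytes (139 with no filter; 0 to 2 without 1 library).

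The share difference, -0.720 percentage points, went to -5.12 with at least 2 Vegfc UMIs and to -3.24 with the gate on thinned counts (exact permutation p 0.2 and 0.1). It turned to 0.585 with at least 1 Gpihbp1 UMI and to 1.82 with the stricter cell filter, and ran from -3.61 to 0.816 without 1 library. In named genes, Prkg1 turned to 0.92 without other-lineage barcodes and to 0.51 without mesenchymal barcodes, Fn1 to 0.083 with any Sema3g, and the Nebl interaction to 0.74 without mesenchymal barcodes. The causes were not tested.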
